A study of Mus musculus with 4 samples.

Results

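The TALE homeobox genes encode transcription factors whose homeodomain carries an extra loop of a few residues between its first helices. Gene expression of 9 of them, Meis1, Meis2, Meis3, Pbx2, Pbx3, Pbx4, Pknox1, Tgif1 and Tgif2, was followed by mRNA-seq in red cell progenitors sorted from mouse fetal liver. They were chosen by symbol from a count table of 35927 genes, and all 9 had a row. The cells came from C57BL/6 embryos at E13.5, a stage of mid-gestation, and had been sorted as CD71 positive and TER119 negative, that is, with the transferrin receptor and without a marker of later red cell precursors. Control embryos were Rcor1+/+ or Rcor1+/-, in unstated proportion, and mutant embryos were Rcor1-/-. Rcor1 encodes CoREST, the scaffold of a complex that removes active histone marks. There were 2 libraries per group, made from pools of several livers, so values of single embryos were not measured.

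Meis and Pknox proteins bind DNA together with Pbx proteins, and such pairs join Hox proteins on their target sites. In the mouse blood system Meis1 is known from stem cells and megakaryocytes, where it is required, and from leukaemia driven together with Hoxa9. Tgif1 and Tgif2 are repressors that bind DNA alone or attach to Smad proteins and dampen TGF-beta signalling.

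Meis1 rose 4.88-fold and Tgif1 2.31-fold in the mutant, while Pbx2, the member with the highest counts, fell to 0.716 of its control level and Tgif2 to 0.486. Pknox1 rose 1.11-fold, and Meis3, Pbx3 and Pbx4 did not pass the test. Of the 9 members, 8 had enough counts to be tested: 3 rose, 2 fell and 3 did not pass. These calls stand against a high background, since 57.5% of the 13140 genes tested were called, 28.3% as higher and 29.2% as lower. In numbers these were 3723 and 3835 genes, against 5112 and 2553 when libraries were scaled by their totals alone. The members' share is near that background, so their number of calls says nothing particular about the family, and the size of each change is given below. Called means an adjusted p (Benjamini-Hochberg over all genes tested) below 0.05 in edgeR's quasi-likelihood test. Levels are CPM, counts relative to library size after TMM scaling, with the SD over n = 2 libraries, and changes are log2 fold changes of mutant over control with their standard error. In bulk samples a lower share of cells of one type and less RNA per cell cannot be told apart.

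The libraries held 15053229 to 26892375 counts. Rcor1 itself had 160 and 175 CPM in the control libraries and 77.9 and 78.9 CPM in the mutant libraries. All 10 erythroid markers, among them Tfrc, Gata1 and Klf1, were present, and all 10 fell, from a summed 7377 and 7507 CPM in controls to 4767 and 4621 CPM in mutants. The fall of Tfrc did not pass without mutant replicate 1 (log2 fold change -0.46) or without mutant replicate 2 (-0.54). Of the markers of other cells, 10 of 12 megakaryocyte genes rose (summed level 136 to 142 CPM in controls, 399 to 403 CPM in mutants), as did 8 of 10 mesenchymal genes (8.35 to 8.37 and 24.7 to 27.0 CPM), 5 of 9 tested endothelial genes (162 to 165 and 173 to 174 CPM) and 7 of 11 hepatoblast genes (994 to 1009 and 1349 to 1354 CPM). In the megakaryocyte list 1 gene did not pass and 1 fell. The latter was Vwf, from 36.2 ± 2.01 to 24.1 ± 1.72 CPM (log2 fold change -0.59 ± 0.09). Of 9 tested macrophage genes 2 rose and 1 fell (21.4 to 21.5 and 25.9 to 26.1 CPM). The fall was that of Marco, from 3.19 ± 0.238 to 0.412 ± 0.0478 CPM (log2 fold change -2.97 ± 0.30). Emr1, 1 of the 2 rises (0.54 ± 0.22), did not pass with DESeq2, limma-voom or no filter beyond 1 count. Egfl7, which did not pass, made up most of the endothelial sum, and the other genes of that list summed to 12.4 to 13.7 CPM in controls and 33.3 to 33.4 CPM in mutants. Of the 10 mesenchymal genes, 5 (Pdgfra, Lum, Postn, Des and Dcn) reached the filter's level in the mutant libraries only, so that this count leans upward. With CPM above 1 in 2 libraries 4 of the 10 were tested and all 4 rose. Among them Pdgfrb exceeded 1 CPM in the mutant libraries only, so this count leans upward too. It had 0.665 and 0.367 CPM in controls against 2.08 and 1.53 CPM in mutants. DESeq2 called 6 of 10 mesenchymal genes higher. DESeq2 also called 6 of 11 hepatoblast genes and 1 of 9 macrophage genes higher, while library totals alone gave 9 hepatoblast rises. None of these markers was at 0 in both controls. The sums of the lists other than the erythroid one moved in the same direction as Meis1 and Tgif1. The part of any of these markers in the changes below was not tested.

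The sequences upstream of the start sites are shown for the 2 members that rose the most and the 1 that fell the most. They are RefSeq sequences of build GRCm38.p6, 250 bases each, 5′ to 3′ on the gene's strand, ending at the base before the start. Meis1 lies on the minus strand at chr11:19018970-19019219, Tgif1 on the minus strand at chr17:70849791-70850040 (the fourth of 5 start sites listed for it, shown because it alone had a motif match in its upstream bases), and Tgif2 on the plus strand at chr2:156839757-156840006. Capitals mark the only stretch with a motif match in these 3 sequences.
Meis1: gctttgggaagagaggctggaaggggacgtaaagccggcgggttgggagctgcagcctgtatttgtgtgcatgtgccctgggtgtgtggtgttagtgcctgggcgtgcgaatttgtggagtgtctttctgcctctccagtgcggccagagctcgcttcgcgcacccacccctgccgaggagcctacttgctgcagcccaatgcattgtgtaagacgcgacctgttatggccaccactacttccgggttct
Tgif1: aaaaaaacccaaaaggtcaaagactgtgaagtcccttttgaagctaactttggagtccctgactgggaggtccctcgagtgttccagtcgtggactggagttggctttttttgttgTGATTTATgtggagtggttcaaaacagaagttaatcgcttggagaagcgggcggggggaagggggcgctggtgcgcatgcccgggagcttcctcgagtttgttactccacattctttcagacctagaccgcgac
Tgif2: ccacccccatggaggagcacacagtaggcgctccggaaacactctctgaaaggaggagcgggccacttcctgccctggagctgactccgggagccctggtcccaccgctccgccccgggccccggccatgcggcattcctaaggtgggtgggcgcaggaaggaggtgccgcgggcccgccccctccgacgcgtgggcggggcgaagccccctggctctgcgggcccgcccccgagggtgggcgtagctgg

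Windows from 250 bases before to 50 after each start were searched on both strands for 4 motifs. The core site of Meis and Pknox proteins was spelled TGACAG and the joint site of Pbx with Hox proteins TGATNNAT. The site of the erythroid GATA factors was spelled AGATAA, and the core site of Gfi1 and Gfi1b was spelled AAATCA. Among all 32851 promoters listed, 19.2%, 8.85%, 11.2% and 14% held them, in that order. Of the 9 members 7 had an entry (Pbx3 and Pknox1 had none), with 11 windows in all. None of the 4 motifs occurred in the windows of Meis1, Meis2, Meis3, Pbx2, Pbx4 and Tgif2. In the Tgif1 sequence above, the capitals match the Pbx and Hox site, and the same bases hold AAATCA on the other strand. The match begins at position -134, counted from the start. Other Tgif1 windows, the third and the fifth, held TGACAG just after the start. GC content was 58.3% in the window of Meis1, 72.3% in that of Tgif2, 76% in that of Pbx2 and 37.3% to 68.7% over the windows of Tgif1, beside a median of 52.7% over all promoters.

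Meis1 (ENSMUSG00000020160, on chromosome 11), a partner of Pbx and Hox proteins, was covered by 63 and 67 reads in the 2 control libraries and by 364 and 205 in the mutant ones. Its level was 2.46 and 3.07 CPM in controls and 13.8 and 13 CPM in mutants. Both mutant libraries were far above both controls, and the gap was much wider than the distance between replicates. The log2 fold change was 2.29 ± 0.15 (95% interval 1.97 to 2.60, adjusted p = 9.12e-10 in edgeR's quasi-likelihood test), and it ranked 520 from the top among 13140 genes. The change passed under all 14 alternatives and stayed between 2.12 and 2.43. In GENCODE M21 other genes share 18.3% of the exonic bases of Meis1. Of these genes, Gm16140 on the other strand had 0 counts in every library. Gm37818, on the same strand as Meis1, had no row in the count table, so any reads from it could not be told apart. In the authors' deposited table the log2 fold change of Meis1 was 2.43, on a scale on which the median gene stood at 0.15 and not at the 0.01 of the TMM scale.

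The paralogs of Meis1 were scarce. Meis2 had too few counts to be tested, 4 and 1 in the control and 7 and 7 in the mutant libraries. Its ratio of mutant to control was 3.14, with an exact 95% counting interval from 1.07 to 11.2 that leaves out the spread between libraries. Meis3 counted 12 and 8 reads in control and 13 and 14 in mutant libraries, or 0.469 and 0.367 against 0.491 and 0.891 CPM. The groups of Meis3 came close to touching, and its log2 fold change of 0.61 ± 0.45 did not pass, with a 95% interval from -0.35 to 1.56 that includes both no change and a doubling. Of all counts on Meis1, Meis2 and Meis3 together, the control libraries gave Meis1 79.7% and 88.2% (69.6% to 87.1% and 79.0% to 93.6% as Wilson 95% intervals) and 94.8% and 90.7% in mutants (92.1% to 96.6% and 86.2% to 93.8%). The intervals of both controls overlap that of mutant replicate 2, and the interval of control replicate 2 also overlaps that of mutant replicate 1.

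**Figure D1:**
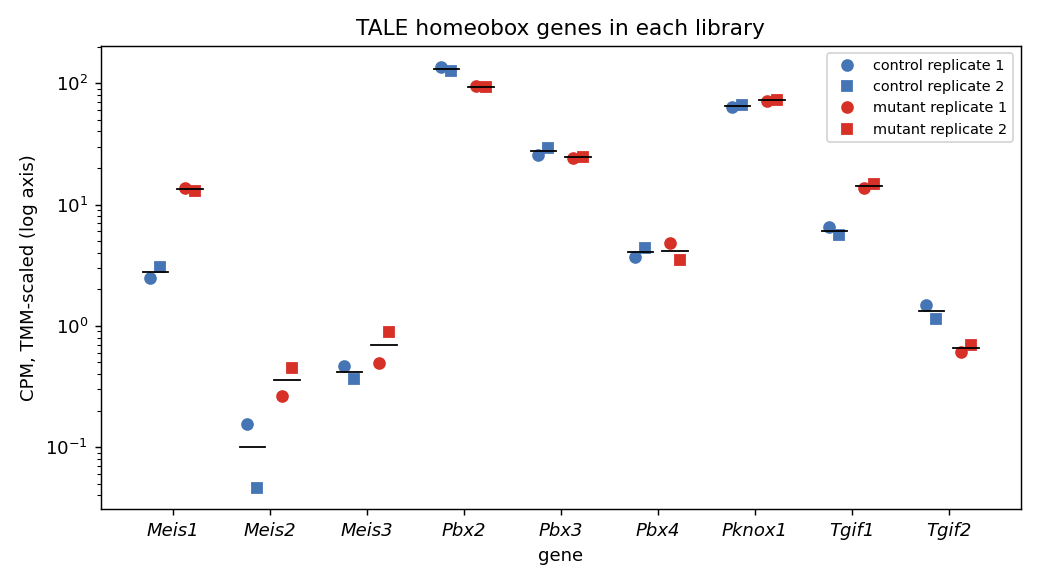
Level of each of the 9 TALE genes in CPM (log axis, TMM-scaled) in each library, with circles and squares for replicates 1 and 2, blue for control and red for mutant, and a bar at each group mean. Meis1 and Tgif1 sit higher and Pbx2 and Tgif2 lower in both mutant libraries, while the points of Pbx4 are mixed.

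Pbx2 (ENSMUSG00000034673, on chromosome 17), a widely expressed partner of Meis and Hox proteins, had 136 and 126 CPM in the controls and 95 and 92.3 CPM in the mutants. The mutant libraries were close to each other and both below the controls. Its log2 fold change was -0.48 ± 0.06 (95% interval -0.60 to -0.36, adjusted p = 1.14e-06 in edgeR's quasi-likelihood test), and it passed under all 14 alternatives, between -0.55 and -0.35. Pbx3 (ENSMUSG00000038718), its paralog, had 25.7 and 29.2 CPM in controls and 24.3 and 24.8 CPM in mutants. The mutant values lay just below the lower control, and the change of -0.16 ± 0.09 did not pass (95% interval -0.34 to 0.03). Without control replicate 1 Pbx3 passed, at -0.26 (adjusted p = 0.0213), whereas scaled to library totals alone it was -0.02. Pbx4 (ENSMUSG00000031860), which in the mouse is best known from the testis, had 3.71 and 4.36 CPM in controls and 4.80 and 3.50 CPM in mutants. The mutant libraries lay on either side of the controls. The change of 0.08 ± 0.19 did not pass, with an interval from -0.31 to 0.48, and its sign turned without control replicate 1 (-0.04) and without mutant replicate 1 (-0.20).

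Pknox1 (ENSMUSG00000006705), also called Prep1, which competes with Meis proteins for Pbx partners, had 63.6 and 65.7 CPM in controls and 71.1 and 73.0 CPM in mutants. The groups did not overlap, which also held for 77.9% of all genes tested. The change was small, 0.16 ± 0.06 (95% interval 0.02 to 0.29, adjusted p = 0.042 in edgeR's quasi-likelihood test). The call did not hold in 7 of 14 alternatives, over which the adjusted p ran from 0.000601 to 0.25: with no filter (0.194), with DESeq2 (0.139), with edgeR's exact test (0.0715) and without control replicate 1 (0.25), control replicate 2 (0.0548), mutant replicate 1 (0.108) or mutant replicate 2 (0.149).

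The Tgif repressors moved apart. Tgif1 (ENSMUSG00000047407), a corepressor of Smad and retinoid receptor targets, had 168 and 122 reads in the controls against 359 and 232 in the mutants, or 6.57 and 5.59 against 13.6 and 14.8 CPM. Both mutant libraries had more than double the level of either control. Its log2 fold change was 1.21 ± 0.13 (95% interval 0.94 to 1.47, adjusted p = 3.63e-07 in edgeR's quasi-likelihood test), between 1.09 and 1.34 over 14 alternatives, all of which it passed. Tgif2 (ENSMUSG00000062175), its paralog with a like repressor role, had 38 and 25 reads in the controls against 16 and 11 in the mutants, or 1.49 and 1.15 against 0.605 and 0.700 CPM. Both mutants were below both controls, and the change was -1.04 ± 0.33 (95% interval -1.75 to -0.33, adjusted p = 0.0134 in edgeR's quasi-likelihood test). That call rested on few counts and was lost when mutant replicate 1 (adjusted p = 0.116) or control replicate 1 (0.174) was left out, and with DESeq2 (0.175). The lowest adjusted p over its alternatives was 0.00598. In the GENCODE M21 annotation 61.6% of the exonic bases of Tgif2 also lie in exons of genes on the other strand, and no source used here says whether strand was used. One of these genes, 5430405H02Rik, was listed with 24 and 28 reads for the controls and 36 and 19 for the mutants, so part of the Tgif2 counts cannot be told apart from it.

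**Figure D2:**
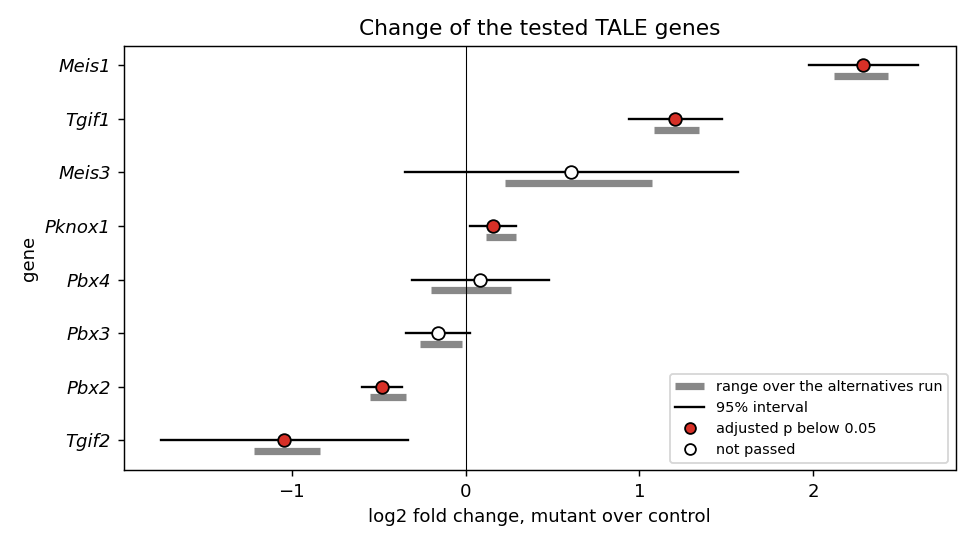
Log2 fold change (mutant over control) of the 8 tested TALE genes, with the 95% interval as a thin line, the range over the alternatives run as a grey bar and a filled point where the adjusted p was below 0.05. Meis1 and Tgif1 lie at 2.29 and 1.21, Pbx2 and Tgif2 at -0.48 and -1.04, and the grey bar of Pbx4 crosses 0.

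Ratios between members within one library are free of any scaling between libraries. There were 4.42 and 4.88 Tgif1 counts for each Tgif2 count in the controls and 22.4 and 21.1 in the mutants. Meis1 had 0.0181 and 0.0245 counts for each Pbx2 count in controls and 0.145 and 0.141 in mutants. The ratio of Meis1 to Pknox1 went from 0.0387 and 0.0468 to 0.194 and 0.179. In each of these pairs the mutant libraries stood together and well above the controls. The mutant ratios of Tgif1 to Tgif2 rest on only 16 and 11 Tgif2 counts, so their closeness to each other is uncertain. Pknox1 had 0.467 and 0.523 counts for each Pbx2 count in controls and 0.748 and 0.791 in mutants, also without overlap. Pbx3 had 0.189 and 0.232 for each Pbx2 count in controls and 0.256 and 0.269 in mutants, where the upper control lay nearer to the mutants than to the other control. With 2 libraries against 2 an exact permutation test cannot go below p = 0.33, so these ratios were not tested.

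**Figure D3:**
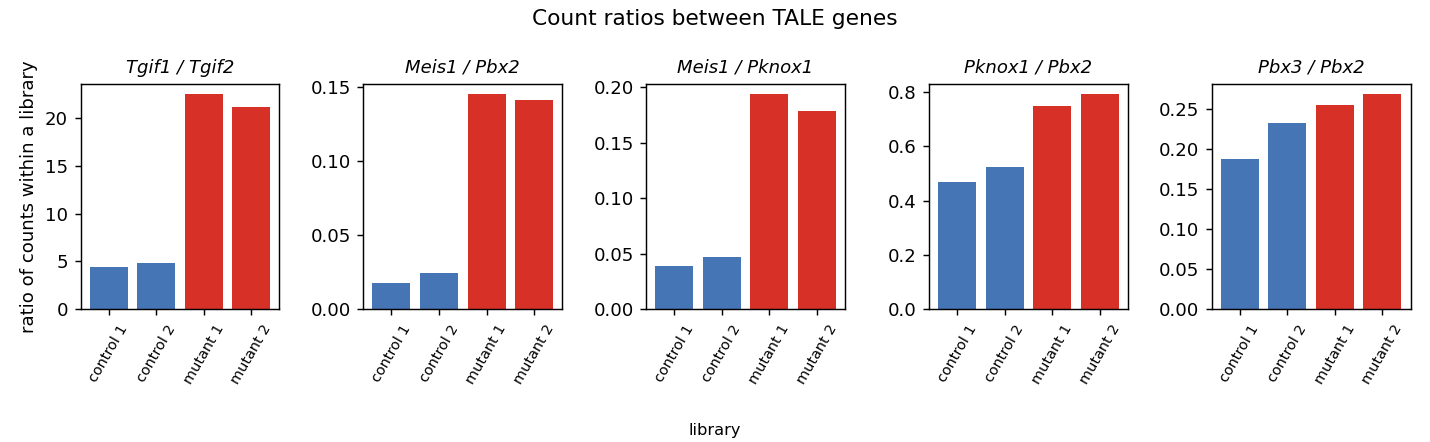
Ratio of the counts of one TALE gene to those of another within each library (bars from 0, blue control, red mutant). The ratio of Tgif1 to Tgif2 stands at 4.42 and 4.88 in the controls and at 22.4 and 21.1 in the mutants. The Tgif2 counts behind it were 38 and 25 in the controls and 16 and 11 in the mutants.

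The sum over the 9 members was 240 and 235 CPM in controls and 224 and 224 CPM in mutants. Pbx2 took 56.7% and 53.4% of the members' counts in controls and 42.4% and 41.3% in mutants. The share of Meis1 was 1.03% and 1.31% in controls (0.803% to 1.31% and 1.03% to 1.66% as Wilson 95% intervals) and 6.14% and 5.84% in mutants (5.56% to 6.78% and 5.11% to 6.66%). These intervals cover counting error only. Pknox1 went from 26.5% and 27.9% to 31.7% and 32.7%, and Tgif1 from 2.74% and 2.38% to 6.06% and 6.60%.

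Levels of different genes were compared as CPM per kilobase of exon, with exon lengths from GENCODE M21, which may differ from the annotation the authors used. In controls Pbx2 led with 36.0 ± 2.03 CPM per kilobase, followed by Pknox1 (9.32 ± 0.217), Pbx3 (4.49 ± 0.412), Pbx4 (1.82 ± 0.205) and Tgif1 (1.08 ± 0.123). Tgif2 (0.343 ± 0.0627) and Meis1 (0.263 ± 0.0409) followed and differed by about their SDs, and Meis3 (0.132 ± 0.0228) and Meis2 (0.0084 ± 0.00649) were last. In mutants the first 3 kept their order, at 25.7 ± 0.526, 10.4 ± 0.201 and 4.02 ± 0.06. Tgif1 (2.52 ± 0.15) then stood above Pbx4 (1.87 ± 0.414), a gap of little more than their SDs, and Meis1 (1.27 ± 0.0477) stood above Meis3 (0.218 ± 0.089) and Tgif2 (0.170 ± 0.0176), which did not differ beyond their spread. On this scale of levels Meis1 stood above Tgif2 in mutants and below Pbx2, Pknox1 and Pbx3.

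Among 9974 eligible genes, those whose log2 CPM followed Meis1 most closely over the 4 libraries were Sdpr, Gng11, Tpm4, Ccdc135 and Kalrn. Likeness was the Euclidean distance between log2 CPM values centred on each gene's mean, and it ran from 0.0397 for Sdpr to 0.143 for Kalrn. Sdpr, which encodes a protein of caveolae, had 2.07 and 2.61 CPM in controls and 11.9 and 11.4 CPM in mutants. Tpm4, a tropomyosin, had 1.96 and 2.15 against 10.4 and 9.99 CPM, and Gng11, a G protein gamma subunit, 0.469 and 0.596 against 2.76 and 2.74 CPM. All shared the same 4 libraries, and a like pattern over so few libraries mostly means a rise of like size.

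The Hox genes, whose products bind DNA with Pbx and Meis partners, were scarce in all libraries. All 39 Hox genes together gave 16 and 11 reads in the control against 49 and 34 in the mutant libraries, or 0.626 and 0.504 against 1.85 and 2.16 CPM. Hoxb4, known from the growth of blood stem cells, was the 1 Hox gene with enough counts to be tested, and it passed the filter through the mutant libraries. With 4 and 3 reads in the controls against 20 and 13 in the mutants it rose by 2.36 ± 0.51 (adjusted p = 0.00075 in edgeR's quasi-likelihood test). For Hoxa9 there were 2 and 2 reads against 7 and 6. Both mutant libraries were above both controls for Hoxa9, at a depth of a few counts.

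Genes reported elsewhere as targets of Meis1 or Pbx proteins in leukaemia, stem cells or megakaryocytes moved in both directions: 6 of 7 rose and 1 fell, with a median log2 fold change of 1.71 beside 0.01 over all genes tested. Pf4, a platelet chemokine, went from 12.7 ± 0.508 to 72.7 ± 3.26 CPM (2.51 ± 0.08, adjusted p = 1.55e-13). Hif1a, a factor of the response to low oxygen, went from 52.9 ± 0.201 to 80.8 ± 2.28 CPM (0.61), and its paralog Epas1 rose by 1.71 from 0.614 ± 0.0392 CPM. Erg, an ETS factor of stem cells, rose by 1.5 from 0.363 ± 0.0706 CPM, and Cd34 and Flt3 rose by 4.08 and 3.93. Flt3, with 2 and 4 reads in controls against 55 and 30 in mutants, and Erg, with 8 and 9 against 24 and 19, reached the filter's level in the mutant libraries only, so that the count and median of this list lean upward. The rise of Erg did not pass with DESeq2 (adjusted p = 0.0796) or in edgeR's quasi-likelihood test without control replicate 1 (adjusted p = 0.0644), which left 5 rises each. Trib2, a pseudokinase whose gene responds to Meis1 in mouse leukaemia, went the other way, from 12.9 ± 0.193 to 3.85 ± 0.321 CPM (-1.72 ± 0.14, adjusted p = 1.05e-08). Pf4 is also among the megakaryocyte markers whose sum rose, and whether any of these genes is a target in these cells was not measured.

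Stem and progenitor factors moved in both directions, with more rises than falls. Of 13 tested, 7 rose, 2 fell and 4 did not pass, with a median of 0.22. Over all genes tested 28.3% were called higher and 29.2% lower, with a median of 0.01. Without control replicate 1 the median was 0.13 with 5 rises, DESeq2 also gave 5 rises, and library totals alone gave 0.35 with 8 rises. The rises of Fli1 (3.32), Hmga2 (1.98) and Hhex (1.82) were the largest of this list, the ETS factor Fli1 having gone from 2.08 ± 0.234 to 20.5 ± 3.83 CPM. The erythroid complex genes Tal1 (-0.24) and Lmo2 (-0.39) fell, by much less.

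**Figure D4:**
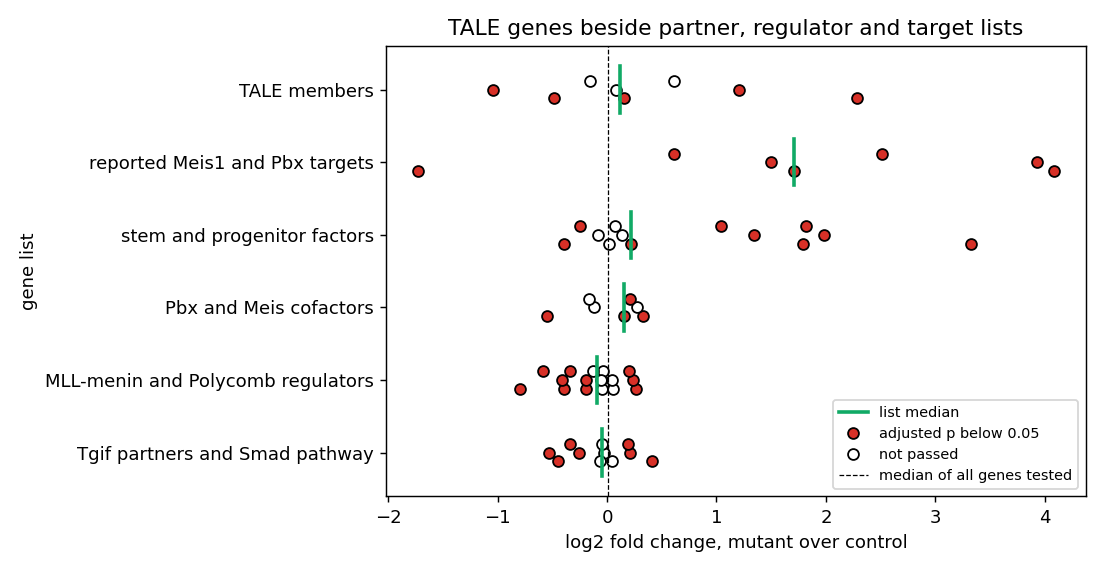
Log2 fold change (mutant over control) of the tested genes of each list, with filled points for an adjusted p below 0.05, a green bar at the list median and a dashed line at the median of all genes tested. The reported targets spread from -1.72 to 4.08, while the cofactor, regulator and Smad lists stay within -0.80 and 0.42.

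Cofactors and regulators moved in both directions, as did all genes tested, of which 28.3% were called higher and 29.2% lower. The shares called in these lists were near the 57.5% over all genes tested, so their counts say nothing particular about the lists. Of 7 cofactors of Pbx and Meis proteins, 3 rose and 1 fell: Crtc3 (0.32), Creb1 (0.21) and the corepressor gene Ncor1 (0.15) against Crtc1 (-0.55), a coactivator gene, which went from 35.4 ± 1.19 to 24.2 ± 1.26 CPM. Pbxip1, whose human product binds PBX proteins and keeps them from DNA, did not pass (-0.16 ± 0.09). The MLL and menin complex maintains Meis1 and Hoxa9 expression in leukaemia, and the Polycomb complexes act against it. Of 16 genes listed as regulators around these complexes, not all of them part of the complexes, 3 rose and 7 fell. The rises were Mll1 (0.26), Rnf2 (0.23) and Suz12 (0.20), and the deepest falls Ring1 (-0.80), Mllt1 (-0.59) and Wdr5 (-0.42), with a list median of -0.09. Men1, which encodes menin, fell by 0.40 from 166 ± 9.65 CPM.

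Among 11 partners of Tgif proteins and members of the Smad pathway, 3 rose, 4 fell and 4 did not pass, with a median of -0.04. The share called was again near the 57.5% over all genes tested and says nothing particular about this list. Skil, a Smad corepressor, rose by 0.42, Smad4 by 0.21 and Ctbp2 by 0.19. Ctbp1, the corepressor that Tgif1 recruits, fell by 0.53, from 1018 ± 3.45 to 707 ± 11 CPM, followed by Ski (-0.45), Smad3 (-0.34) and Hdac2 (-0.26). These shifts were smaller than those of Tgif1 and Tgif2. With library totals alone the medians of the regulator and Smad lists turned to 0.04 and 0.09, on a scale whose all-gene median was 0.15 in place of 0.01. The regulator list then had 5 rises and 5 falls. Single libraries moved these small counts: without control replicate 1 each of these 3 lists had 1 rise, the cofactor list had 1 without mutant replicate 2, and the Smad list had 1 without mutant replicate 1, with DESeq2 and with no filter beyond 1 count.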

How the data were processed

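Per the submitters' processing notes, the tools were FastQC, Bowtie and edgeR, and the genome build was mm9. Versions, the counting tool, the use of strand and the handling of reads with several matches are not given in the sources used here. The authors deposited raw counts per gene and, per the file headers, log2 fold changes and p-values of their own mutant over WT comparison. The columns headed WT were taken as the control libraries of the same number, since no other group exists beside the mutant. Of 35939 rows, 12 held NA and were left out.

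The main analysis used edgeR 4.0.16 (R 4.3.3) on the deposited counts: filterByExpr (13140 genes), TMM, estimateDisp, glmQLFit with robust and glmQLFTest, two-sided, mutant against control. A common dispersion of 0.00232 (coefficient of variation 4.81%) lets small changes pass. Standard errors were the size of the log2 fold change divided by the root of F. The fit was tested on simulated data. Per the labels, replicate libraries are biological replicates.

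The members and lists were chosen with earlier results of these data known, as was the rule for named genes: all members, all reported targets, Hoxa9, the called genes of a list (its 3 highest and 3 lowest where over 5 moved one way) and the 5 genes most like Meis1. Pbxip1 and Men1 were added for their role after their values were seen. Lists were described by counts and medians, with no set test. Mll1 was found by an older symbol. Some genes of the TALE class and of the lists are not reported here.

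The alternatives changed the scaling (RLE, upper quartile, or library totals alone), the filter (at least 1 count in all, or CPM above 1 in 2 libraries), the test (DESeq2 1.42.0, limma-voom with limma 3.58.1, edgeR's exact test, or glmQLFit without robust) and the design (the replicate number as a block). Each library was also omitted once, and the lone library of its group was then assumed to vary as the others do.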

Additional observations from a re-analysis of the deposited data

How the results depend on the processing

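Of the 9 members, 5 were called. DESeq2 called 3, and with single libraries left out the number ran from 3 to 4. Pknox1 and Tgif2 were the members that lost calls, Pbx3 gained one without control replicate 1, and Meis1, Tgif1 and Pbx2 were called under all 14 alternatives. The number of genes called stayed within 1.5 times of 7558, from 5917 with DESeq2 to 8402. Library totals alone turned the split of 3723 higher and 3835 lower genes into 5112 and 2553 and shifted the median gene from 0.01 to 0.15 on the log2 scale. The cause was not tested. With the replicate number as a block, 8402 genes and the same number of members, 5, were called. The labels do not say that the numbers mark a shared litter or day, and deviations of same-numbered libraries correlated at 0.119 over genes. Depth limits Meis2, Meis3, Tgif2 and the Hox genes, which had at most 38 counts in any library.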

Other observations

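Genes next to the members on the chromosome were taken by position from RefSeq, not for their values, and moved unevenly. Among all genes tested 57.5% were called, so calls among neighbours say nothing particular about these positions. Beside Meis1, neither Etaa1 (0.11 ± 0.08) nor Spred2 (-0.19 ± 0.10) passed in edgeR's quasi-likelihood test, with levels of 29.3 and 16.1 CPM in controls. Beside Tgif1, Myl12b did not pass (0.41 ± 0.27), and Dlgap1 had too few counts to be tested. Next to Pbx2, which fell, Gpsm3 rose by 1.34 ± 0.17 (adjusted p = 3.66e-06) from 3.56 to 9.01 CPM. In GENCODE M21, Gpsm3 exons cover 6.24% of the exonic bases of Pbx2. Ager, on the other side of Pbx2, did not pass (-0.05). Next to Tgif2, the gene listed as 1110008F13Rik (now Rab5if) fell by 0.35 ± 0.06, and next to Pknox1, Ndufv3, a subunit of respiratory complex I, rose by 0.22 ± 0.05, while Cbs on the other side of Pknox1 did not pass (-0.30 ± 0.37). Next to Meis3, which did not pass, Dhx34 fell by 0.50 ± 0.07 (adjusted p = 1.30e-05), and next to Pbx4 Lpar2 rose by 0.44 ± 0.17 (adjusted p = 0.0385). Next to Pbx3, Fam125b (now Mvb12b) fell by 0.72 ± 0.07 and Mapkap1 by 0.16 ± 0.05.

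Of 193 genes whose deposited description holds the word homeobox, 30 had enough counts to be tested. Of these, 11 rose, 18 did not pass and 1, Tgif2, fell. Over all genes tested 28.3% were called higher and 29.2% lower. Pbx2, which fell, and Pbx3 are not among the 30, since their descriptions name them otherwise. Meis1 had the fourth highest and Tgif1 the eighth highest log2 fold change of the 30. Scarce genes enter such a count through the group where they are higher, so it can lean upward.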
